A study of Danio rerio with 6 samples.

Results

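Glycolysis in the vessel wall was followed here through 37 zebrafish genes, which encode the glucose transporters of the Glut1 type, the enzymes that turn glucose into lactate, and the Pfkfb enzymes that regulate phosphofructokinase. The genes were chosen by name for their known function, but with earlier results of these data known. A mean normalized value of at least 5 over the 6 libraries was also required. All 37 names were found among the 31701 genes of the table and all 37 met that minimum, which 20900 genes met in all. Their means ran from 7.2 for pfkfb2b to 1381 for gapdhs, with 26 genes at 50 or more and 7 under 20. By role they were 2 transporters, 2 hexokinases, 2 glucose phosphate isomerases, 6 phosphofructokinases, 4 aldolases, 2 triosephosphate isomerases, 2 glyceraldehyde phosphate dehydrogenases, 1 phosphoglycerate kinase, 3 phosphoglycerate mutases, 3 enolases, 2 pyruvate kinases, 3 lactate dehydrogenases and 5 Pfkfb enzymes.

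Endothelial cells came from embryos of the AB strain at 48 hours post fertilization (hpf) that all carried Tg(kdrl:EGFP)s843, a reporter driven by an endothelial promoter, and each of the 3 groups had 2 libraries. Wild-type siblings were recognized by their parachordal lymphangioblasts, the precursors of trunk lymphatic vessels, and may therefore hold embryos with 1 mutant copy. The hhex mutants, which lacked these cells, carried a homeodomain allele from which 3 amino acids are deleted in frame, so that hhex RNA is still made. The overexpression group carried in addition Tg(fli1a:tdTomato-2A-hhex)bns136, in which the endothelial fli1a promoter drives hhex together with a red reporter. Siblings and mutants were sorted on EGFP, and overexpressing cells on EGFP and tdTomato, so that the effect of hhex and that of the sorting gate cannot be told apart in either comparison with overexpression. No source states that the 2 libraries of a group came from separate pools of embryos, and p-values measure only the spread between these libraries.

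Glycolysis splits glucose into pyruvate in the cytosol and yields a little ATP without oxygen, and lactate dehydrogenase then recycles the NADH. Its pace is set mainly where glucose enters the cell and at the hexokinase, phosphofructokinase and pyruvate kinase steps, and the Pfkfb enzymes make and remove the sugar bisphosphate that switches phosphofructokinase on. Endothelial cells of mammals draw most of their ATP from glycolysis even beside oxygenated blood, and PFKFB3 is known there as a driver of tip cell behaviour during vessel sprouting, the process whose venous form fails in hhex mutants. Most steps have several isozymes in the zebrafish, some of them typical of muscle, neurons or liver in mammals, so a bulk library of sorted cells also reads the isozymes of any other cell in the sort.

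The normalized values summed to between 19133058 and 23381023 per library, from an estimated 19651603 to 23615228 reads on genes. These read numbers were estimated from the spacing of the low rounded values. Ribosomal RNA made up 32.4% to 36% of the sum of a library. The hhex gene stood at 204 and 279 in siblings, at 613 and 1157 in mutants and at 764 and 925 in overexpression, with no overlap between siblings and either other group. All 10 endothelial markers on a list (cldn5b, tie1, erg and others) were detected in every library, but their summed value ranged from 11604 in mutant replicate 1 to 37097 in overexpression replicate 1, with 32249 in mutant replicate 2. The sum of 20 skeletal muscle markers was 57209 and 38090 in siblings, at 18723 and 11052 in mutants and at 10900 and 29332 in overexpression, with myog alone among them at 0 in a library. The sum of 10 myeloid markers was 1005 in overexpression replicate 1 and 8088 to 12992 in the other libraries. For 11 erythroid markers it was 3969 to 7460, for 13 neural markers 487 to 1588 in siblings and mutants but 2480 and 1943 in overexpression (sypa at 0 in a library), and for 12 epidermal markers 10860 to 22903 but 35858 and 30073 (cldne at 0 in a library). A single gene, krt8, gave most of the epidermal sum in every library, from 6596 (mutant replicate 1) to 28489 (overexpression replicate 1). Its value ranked the 6 libraries in the same order as the endothelial sum. Mutant replicate 2 had a krt8 value of 21774 within a sum of 22903. There krt4 (365), cyt1l (94) and cyt1 (53) had their lowest values, but anxa1a (216) its highest. The epidermal sum therefore mainly reads krt8. All 10 endothelial, all 13 neural and all 12 epidermal markers had a log2 fold change above 0 in overexpression against siblings. The medians were 0.89, 0.83 and 0.95 in that order. The part of the erythroid, neural and epidermal lists in the values below was not tested. Fewer cells of a type and less RNA per cell cannot be told apart in such bulk values.

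Changes are given as log2 fold changes between the means of log2(value + 1) of the groups, from limma fitted to all 20900 genes and all 6 libraries together, with p-values adjusted by the Benjamini-Hochberg method and a threshold of 0.05. No gene passed this threshold in any of the 3 comparisons, 0% of all genes for overexpression against siblings, 0% for mutants against siblings and 0% for overexpression against mutants, and so 0 of 37 glycolysis genes passed in each. At an unadjusted p under 0.05 the limma fit gave 3135, 711 and 3675 genes in the same order. Among the 37 genes, 12, 5 and 8 were below that p, as detailed with each comparison. The values of single libraries, their overlap and the fold changes with their standard errors (SE, 0.21 to 1.09 for these genes) are therefore given as measurements. The comparisons share libraries, since each group enters a pair of them.

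**Figure D1:**
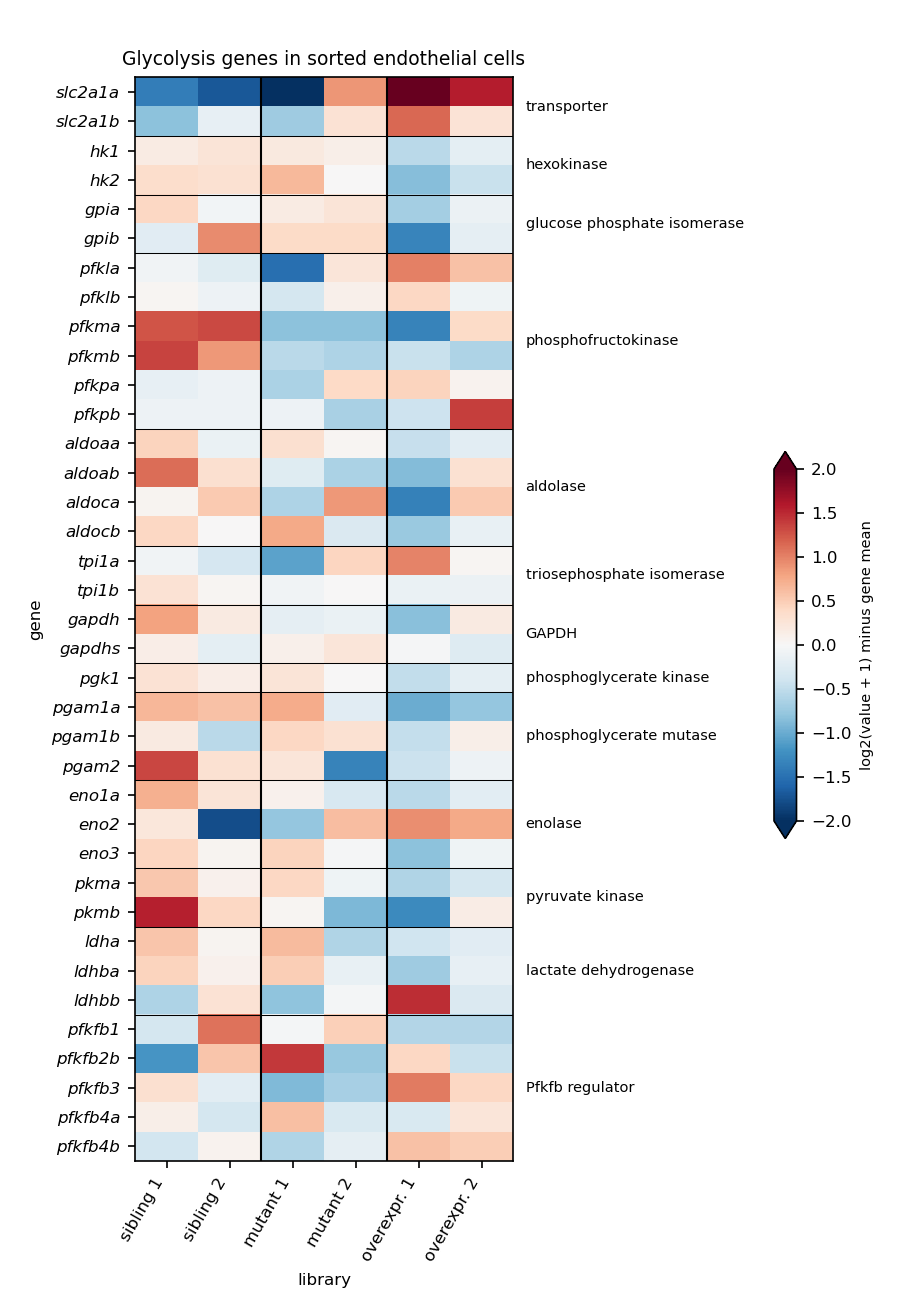
Level of each of the 37 genes (rows, by role) in each of the 6 libraries (columns), as log2(value + 1) minus the mean of the gene, with colours that saturate at 2 in either direction. Most enzymes are blue in overexpression replicate 1, while slc2a1a, slc2a1b, pfkfb3 and pfkfb4b are red in both overexpression libraries.

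The Glut1-type transporter genes at the head of the pathway were higher in overexpression than in siblings, whereas slc2a3b of the Glut3 type, given below, was lower. slc2a1a (ENSDARG00000001437, GRCz10 chromosome 23, 22273916 to 22286084) encodes a Glut1 glucose transporter, and its normalized value was 41 and 33 in siblings, at 20 and 202 in mutants and at 877 and 325 in overexpression. Both overexpression libraries lay above all 4 others, the sibling libraries lay close together, and the mutant libraries fell on either side of them. The mean was 601 ± 390 (SD, n = 2) in overexpression, 111 ± 129 in mutants and 37 ± 5.66 in siblings. Against siblings the log2 fold change in overexpression was 3.82 (SE 0.94, adjusted p = 0.208 from limma), the highest value among the 37 genes, and it stayed between 3.11 and 4.54 when each library was left out in turn. With only the 4 libraries of these 2 groups in the fit its adjusted p from limma was 0.0067. In that fit 841 of all 20900 genes passed, against 0 in the main fit. With endothelial marker scaling the log2 fold change of slc2a1a was 2.99 (adjusted p = 0.161 from limma, tested against 0). The median of all genes was -0.79 on that scale. Against mutants the log2 fold change was 3.03 (SE 0.94, adjusted p = 0.194 from limma). Leaving out mutant replicate 1 lowered it to 1.4, whereas leaving out mutant replicate 2 raised it to 4.67. Either fit holds a single mutant library, so only the effect size is given.

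Its paralog slc2a1b (ENSDARG00000007412, chromosome 6, 48069936 to 48095583) stood at 216 and 338 in siblings, at 231 and 466 in mutants and at 842 and 460 in overexpression. Both overexpression libraries were above both sibling libraries, but mutant replicate 2 reached the level of overexpression replicate 2. The log2 fold change against siblings was 1.2 (SE 0.43, adjusted p = 0.278 from limma), with 0.88 without sibling replicate 1, 0.77 without overexpression replicate 1 and 1.64 without overexpression replicate 2. The summed endothelial markers were higher in the same library of each group as slc2a1b, and in mutants and overexpression as slc2a1a, being 15688 and 26127 in siblings, at 11604 and 32249 in mutants and at 37097 and 32124 in overexpression. Between mutant replicate 2 and overexpression replicate 2, whose endothelial sums are close, slc2a1a stood at 202 and 325 and slc2a1b at 466 and 460. The part of endothelial content in these values was not tested beyond a rescaling of the libraries to that list, which shifted the all-gene median of overexpression against siblings from 0.02 to -0.79 and left slc2a1a at 2.99 and slc2a1b at 0.36.

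The hexokinase genes hk1 and hk2, whose products trap glucose in the cell as its phosphate, were lower in overexpression than in both other groups. Their relative hkdc1, given below, was higher there. hk2 (ENSDARG00000101482, chromosome 5, 13370084 to 13503972), the inducible isozyme in mammals, stood at 296 and 287 in siblings, at 364 and 235 in mutants and at 129 and 170 in overexpression. The overexpression libraries lay below all 4 others, and the mutant libraries spanned the sibling values. Its log2 fold change was -0.97 against siblings (SE 0.29, adjusted p = 0.248 from limma) and -0.98 against mutants (SE 0.29, adjusted p = 0.188 from limma). The second value was -0.66 without mutant replicate 1 but -1.29 without mutant replicate 2. hk1, the common isozyme of most tissues, gave 952 and 1018 in siblings, at 969 and 924 in mutants and at 584 and 738 in overexpression, again with overexpression below all other libraries.

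Glucose phosphate isomerase converts glucose phosphate to fructose phosphate and has 2 genes. gpia stood at 534 and 386 in siblings, at 447 and 480 in mutants and at 248 and 370 in overexpression, so that both overexpression libraries were lowest. For gpib the values were 31 and 71, 48 and 48, and 14 and 32, and its overexpression libraries were below both mutants but overlapped the siblings. The annotated span of gpib overlaps 9 other genes, and its value is uncertain for that reason.

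At the phosphofructokinase step, the committed one, the isozymes did not move together. The muscle-type gene pfkma (ENSDARG00000014179, chromosome 23, 27627245 to 27645126) stood at 41 and 43 in siblings, at 9 and 9 in mutants and at 6 and 22 in overexpression. Its paralog pfkmb (ENSDARG00000060797, chromosome 6, 39742181 to 39767459) stood at 62 and 44, 16 and 15, and 17 and 15. For both genes the siblings were above all other libraries, and mutants and overexpression overlapped. Against siblings pfkmb had a log2 fold change of -1.65 in overexpression (SE 0.50, adjusted p = 0.248 from limma) and of -1.69 in mutants (SE 0.50, adjusted p = 1 from limma), and pfkma one of -2.10 in mutants (SE 0.70, adjusted p = 1 from limma), the lowest of any of the 37 genes in that comparison.

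The liver-type gene pfkla (ENSDARG00000060504, chromosome 9, 53087626 to 53138761) went the other way, with 61 and 54 in siblings, at 22 and 76 in mutants and at 131 and 97 in overexpression. Its overexpression libraries lay above the other 4, and its mutant libraries were far apart. Against mutants its log2 fold change in overexpression was 1.43 (SE 0.56, adjusted p = 0.256 from limma), with 0.56 without mutant replicate 1 and 2.31 without mutant replicate 2. Its paralog pfklb (113 and 103, 86 and 118, 148 and 104) overlapped between all groups. The platelet-type gene pfkpa stood at 435 and 458 in siblings, at 315 and 642 in mutants and at 663 and 513 in overexpression, above both siblings, with mutant replicate 2 between the overexpression libraries. Its paralog pfkpb was at 10 to 15 in 5 libraries and at 44 in overexpression replicate 2. The sum over the 6 phosphofructokinase genes was 727 and 717 in siblings, at 463 and 870 in mutants and at 977 and 795 in overexpression.

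**Figure D2:**
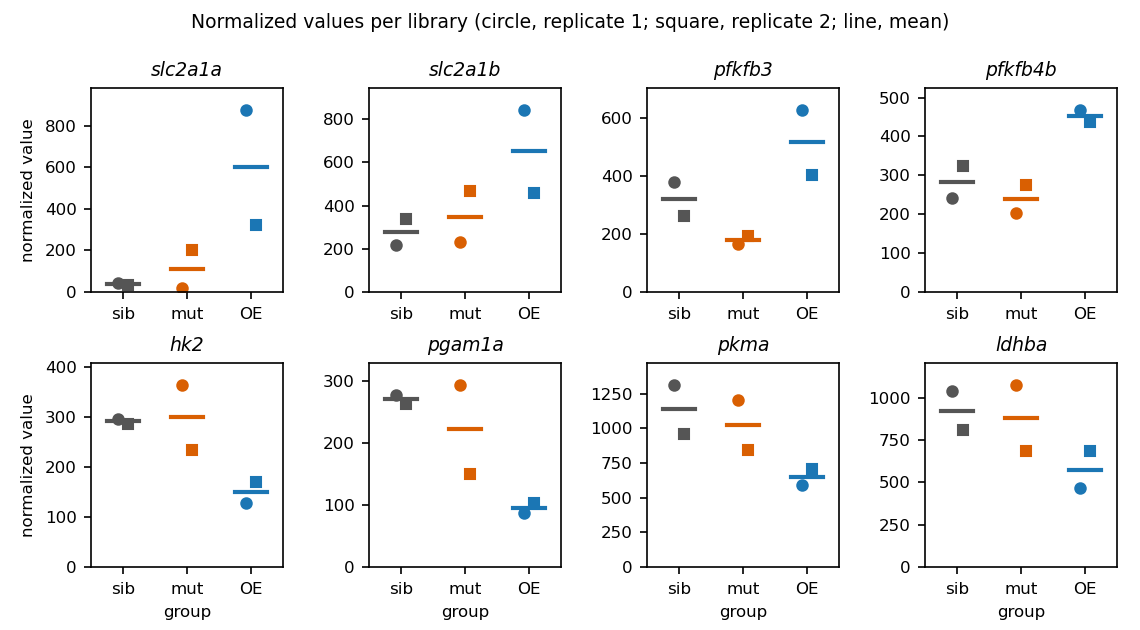
Normalized value (vertical axis, from 0) of 8 genes in siblings (sib), mutants (mut) and overexpression (OE), with 1 point per library and a line at the mean of 2. Both overexpression libraries are the highest for slc2a1a, pfkfb3 and pfkfb4b and the lowest for hk2, pgam1a, pkma and ldhba, although for ldhba overexpression replicate 2 is only 2 units below mutant replicate 2.

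The Pfkfb enzymes act above this step, and pfkfb3 separated all 3 groups. pfkfb3 (ENSDARG00000001953, chromosome 4, 25483768 to 25496261), whose product favours the activating sugar bisphosphate and which the study lists among its tip cell markers, stood at 380 and 262 in siblings, at 164 and 192 in mutants and at 628 and 404 in overexpression. The mutant libraries were the lowest and the overexpression libraries the highest, with no overlap between any groups. The mean was 516 ± 158 (SD, n = 2) in overexpression, 321 ± 83.4 in siblings and 178 ± 19.8 in mutants. In overexpression against mutants its log2 fold change was 1.50 (SE 0.31, adjusted p = 0.136 from limma, the smallest adjusted p of the 37 genes in any comparison). This value was 1.39 and 1.61 without mutant replicates 1 and 2, and 1.18 and 1.82 without overexpression replicates 1 and 2. With only the 4 libraries of these groups in the fit the adjusted p from limma was 0.295. The study itself used DESeq2, a count model, to find changed genes. For pfkfb3 it lists a p-value under its own threshold between mutants and overexpression, and above that threshold in both other comparisons. Count models were not used here, so that result was not tested.

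Against siblings pfkfb3 was lower in mutants by a log2 fold change of -0.83 (SE 0.31, adjusted p = 1 from limma), which was -0.56 without sibling replicate 1. In overexpression it was higher by 0.67 (SE 0.31, adjusted p = 0.347 from limma), with values of 0.94 and 0.41 without sibling replicates 1 and 2 and of 0.36 and 0.99 without overexpression replicates 1 and 2. Mutant replicate 2, with an endothelial marker sum of 32249, had the second-lowest pfkfb3 value, 192, and overexpression replicate 2, with a sum of 32124, had 404. After rescaling to the endothelial list, pfkfb3 between overexpression and siblings was -0.16, which turns its sign but lies above the shifted median of all genes (-0.79) by 0.62. Between overexpression and mutants it remained positive after rescaling, at 0.59, beside a shifted median of all genes of -0.865. The part of endothelial content in the values of pfkfb3, and of pfkfb4b below, was not tested beyond such rescaling.

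pfkfb4b (ENSDARG00000029075, chromosome 6, 39996069 to 40031887) stood at 241 and 325 in siblings, at 204 and 274 in mutants and at 468 and 437 in overexpression. Here too the overexpression libraries were the highest, while siblings and mutants overlapped. Set against mutants, overexpression had a log2 fold change of 0.93 (SE 0.26, adjusted p = 0.175 from limma). Leaving out mutant replicate 1 lowered it to 0.72, and leaving out mutant replicate 2 raised it to 1.14, each time with a single mutant library in the fit. After rescaling to the endothelial list the log2 fold change was 0.03 against mutants and -0.15 against siblings. The shifted medians of all genes were -0.865 and -0.79 in these comparisons, and relative to them pfkfb4b was at 0.89 and 0.64. Its paralog pfkfb4a overlapped between all groups, with 92 and 66, 128 and 68, and 68 and 100. The remaining family members were at low values, pfkfb1 at 10 to 34 and pfkfb2b at 2 to 17. Summed over the 5 Pfkfb genes, the value was 727 and 696 in siblings, at 528 and 559 in mutants and at 1182 and 955 in overexpression, again without overlap between groups.

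The steps below phosphofructokinase begin with the aldolases, which split the sugar bisphosphate. aldoaa stood at 1645 and 1106 in siblings, at 1499 and 1242 in mutants and at 872 and 1044 in overexpression. Both overexpression libraries were the lowest, by a small margin to sibling replicate 2. aldocb, of the brain type in mammals, stood at 132 and 99, 167 and 81, and 59 and 89, and aldoca at 2 to 13 in all libraries. Triosephosphate isomerase interconverts the products of that split, and tpi1b stood at 789 and 664 in siblings, at 613 and 649 in mutants and at 592 and 593 in overexpression, with annotated genes on the other strand of its locus. Its paralog tpi1a was low (5 to 24).

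The dehydrogenase that makes the first NADH has 2 genes here. gapdhs, of the sperm type in mammals, overlapped between siblings and both other groups, at 1501 and 1200 in siblings, at 1471 and 1626 in mutants and at 1344 and 1144 in overexpression. gapdh stood at 369 and 239, 185 and 191, and 117 and 239, so that mutants were below both siblings and overexpression reached sibling replicate 2. pgk1, the first of the ATP-forming steps, stood at 736 and 666 in siblings, at 725 and 606 in mutants and at 432 and 529 in overexpression, the lowest group without overlap.

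The phosphoglycerate mutase gene pgam1a (ENSDARG00000005423, chromosome 13, 31262742 to 31267537) had the smallest unadjusted p among the 37 genes between overexpression and siblings. Its normalized value was 278 and 264 in siblings, at 294 and 151 in mutants and at 88 and 103 in overexpression. The overexpression libraries lay below all others, and mutant replicate 2 lay between them and the siblings. Against siblings the log2 fold change was -1.50 (SE 0.35, adjusted p = 0.193 from limma), which stayed between -1.61 and -1.39 with each library left out. With only the 4 libraries of these groups in the fit the adjusted p from limma was 0.0186, in a fit where 841 of all 20900 genes passed. With endothelial marker scaling the log2 fold change was -2.33 (adjusted p = 0.366 from limma, tested against 0). The median of all genes was -0.79 on that scale. Against mutants the log2 fold change was -1.14 (SE 0.35, adjusted p = 0.191 from limma), with -0.66 without mutant replicate 1 and -1.62 without mutant replicate 2.

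Its paralog pgam1b stood at 103 and 62, 121 and 112, and 65 and 99, and was the only one of the 37 genes with both mutant libraries above both siblings. The muscle-type pgam2 stood at 50 and 24 in siblings, at 23 and 7 in mutants and at 14 and 18 in overexpression, and it overlaps rpl17 on the other strand. Its log2 fold change in mutants was -1.37 (SE 0.71, adjusted p = 1 from limma). That value was -0.85 without sibling replicate 1, -2.16 without mutant replicate 1 and -0.57 without mutant replicate 2.

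Among the enolases, eno1a stood at 233 and 171 in siblings, at 152 and 114 in mutants and at 98 and 123 in overexpression, with siblings above all other libraries. eno3, of the muscle type in mammals, stood at 1125 and 865, 1138 and 816, and 474 and 781, with overexpression lowest, although the gene shares its locus with annotated genes on its own strand. The neuronal-type eno2 stood at 15 and 3, 7 and 20, and 25 and 22, at counts too low to read a difference. The sums over the enolases were 1373 and 1039 in siblings, at 1297 and 950 in mutants and at 597 and 926 in overexpression.

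Pyruvate kinase, the last ATP-forming step, was lower in overexpression as well. pkma (ENSDARG00000099730, chromosome 18, 1014890 to 1059194) stood at 1312 and 960 in siblings, at 1202 and 845 in mutants and at 592 and 709 in overexpression. Its overexpression libraries lay below the other 4, and its log2 fold change against siblings was -0.79 (SE 0.27, adjusted p = 0.262 from limma), in a range of -1.02 to -0.57 with each library left out. pkmb, with an antisense gene at its locus, stood at 190 and 86, 66 and 34, and 26 and 71. Siblings were above all other libraries for pkmb, with a log2 fold change in mutants of -1.41 (SE 0.61, adjusted p = 1 from limma), which was -0.85 without sibling replicate 1 and -0.94 without mutant replicate 2.

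Lactate dehydrogenase turns pyruvate to lactate. ldha stood at 549 and 388 in siblings, at 578 and 247 in mutants and at 282 and 319 in overexpression, so that mutant replicate 2 was the lowest library, and annotated genes overlap its locus. For ldhba, the heart type in mammals, the values were 1038 and 809, 1074 and 686, and 466 and 684, and overexpression was the lowest group by a margin of 2 units. ldhbb was low (6 to 33). Summed over the 3 genes the value was 1594 and 1211 in siblings, at 1658 and 944 in mutants and at 781 and 1012 in overexpression, where mutant replicate 2 lay within the overexpression range.

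In overexpression against siblings, 3 of the 37 genes had an unadjusted p under 0.05 and were higher (8.11%, slc2a1a, slc2a1b and pfkfb4b), beside 6.23% of all genes. For the lower direction the count was 9 of 37 (24.3%, pgam1a, pkma, pfkmb, hk2, hk1, eno1a, pgk1, pfkma and pkmb), beside 8.77% of all genes. Both overexpression libraries lay above both siblings for 8 genes (21.6%, beside 26.9% of all genes) and below both for 19 genes (51.4%, beside 27% of all genes). The 8 higher genes were the 2 transporters, pfkla, pfkpa, tpi1a, eno2, pfkfb3 and pfkfb4b, while the 19 lower genes came from 10 of the enzyme roles and the Pfkfb family (pfkfb1). The median log2 fold change of the 37 genes was -0.58 (14 above 0 and 23 below), beside a median of 0.02 over all genes. Without overexpression replicate 1 this median was -0.31 and without overexpression replicate 2 it was -0.71. The sign of 29 genes was the same whichever library was left out, 8 higher and 21 lower. A gene whose groups do not overlap always keeps its sign, so this count largely restates the overlap above. It was not made over all genes.

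**Figure D3:**
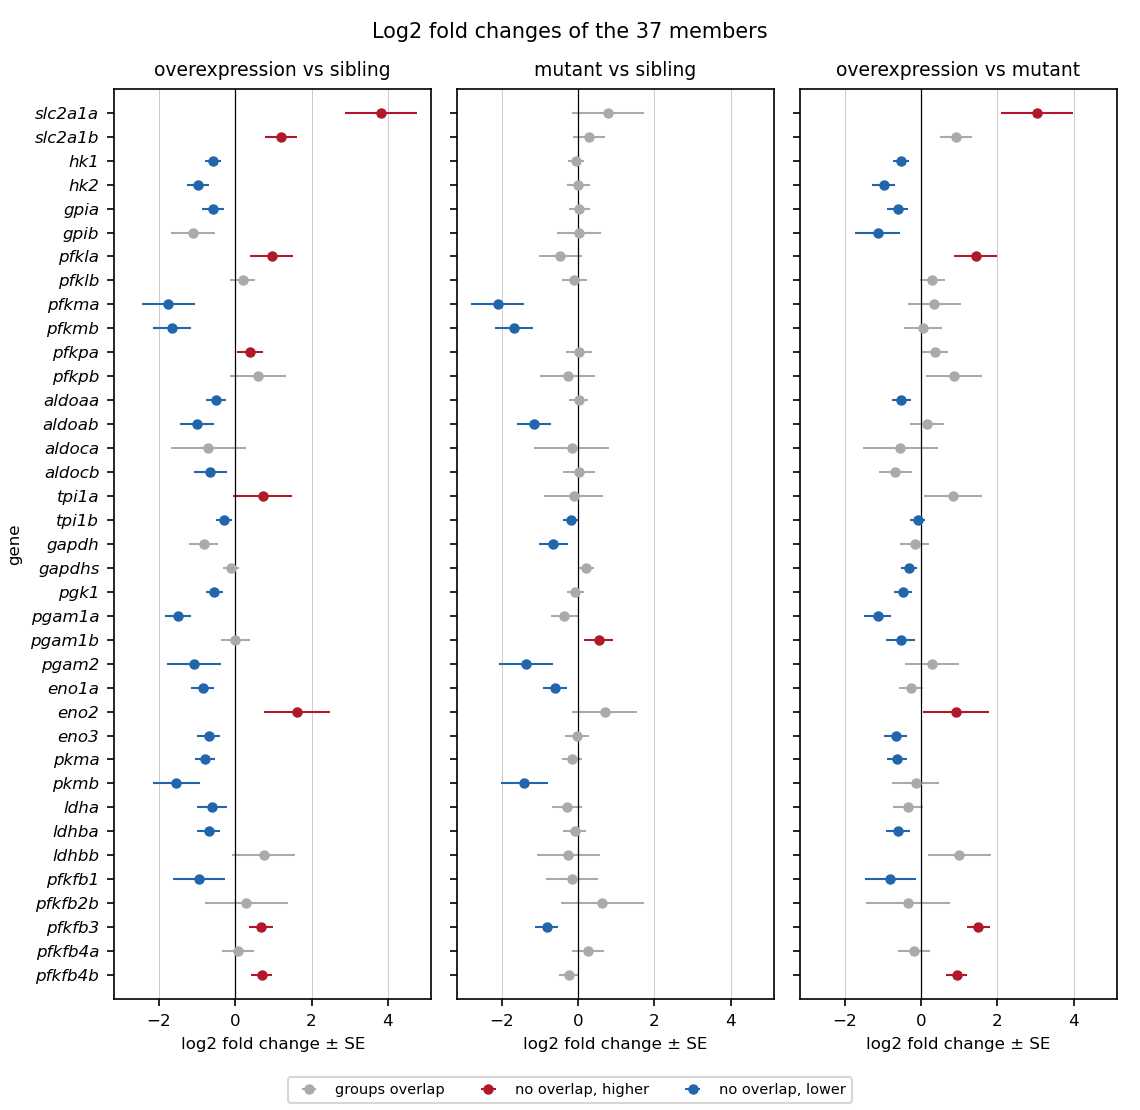
Log2 fold change (horizontal axis, point) with its SE (bar) for each of the 37 genes in the 3 comparisons, coloured by whether the libraries of the 2 groups overlap. In the panel of overexpression against siblings, 19 genes lie to the left without overlap and 8 to the right, and in the panel of mutants against siblings 9 and 1.

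Between mutants and siblings fewer genes stood apart. At an unadjusted p under 0.05, 0 genes were higher, beside 1.23% of all genes, and 5 were lower (13.5%, pfkfb3, pfkma, pfkmb, aldoab and pkmb), beside 2.17% of all genes. Without overlap, 1 gene was higher (2.7%, pgam1b), beside 13.3% of all genes, and 9 were lower (24.3%, the 5 above with eno1a, tpi1b, gapdh and pgam2), beside 13.4% of all genes. The median log2 fold change was -0.12, beside -0.01 over all genes, with 13 genes above 0 and 24 below. Whichever library was left out, 13 genes had the same sign, again without a count over all genes to set beside it.

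Of the 9 genes lower in both mutant libraries, pfkma, pfkmb and pgam2 are of the muscle type in mammals, and aldoab is one of the paralogs of the muscle aldolase. The muscle-type eno3 (log2 fold change -0.03) and the other aldolase A paralog aldoaa (0.02) were close to 0 in the same comparison, and the mutant libraries of both overlapped the siblings. Mutants and siblings also overlapped for pkma, the paralog of pkmb (log2 fold change -0.16), and for ldha (-0.29). aldoab (ENSDARG00000034470, chromosome 12, 4015415 to 4033293) stood at 299 and 172 in siblings, at 116 and 88 in mutants and at 75 and 170 in overexpression. Sibling replicate 1 was the highest library and the mutants lay below both siblings. Its log2 fold change in mutants was -1.16 (SE 0.45, adjusted p = 1 from limma), with -0.76 without sibling replicate 1. The skeletal muscle marker sum was 57209 and 38090 in siblings, and 18723 and 11052 in mutants, and 18 of 19 tested muscle markers had a log2 fold change below 0 in mutants (median -1.72) and in overexpression (median -1.37). At an unadjusted p under 0.05, 17 of 19 muscle markers were lower and 0 higher in mutants, and 15 were lower and 1 higher in overexpression (smyhc1, log2 fold change 4.27), with ckma, mylpfa and tnnt3a among the lower ones in both. Of all genes, 2.17% were lower and 1.23% higher in mutants, and 8.77% lower and 6.23% higher in overexpression. The part of muscle RNA in the values of pfkma, pfkmb, aldoab, pkmb, gapdh and pgam2 was not tested.

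**Figure D4:**
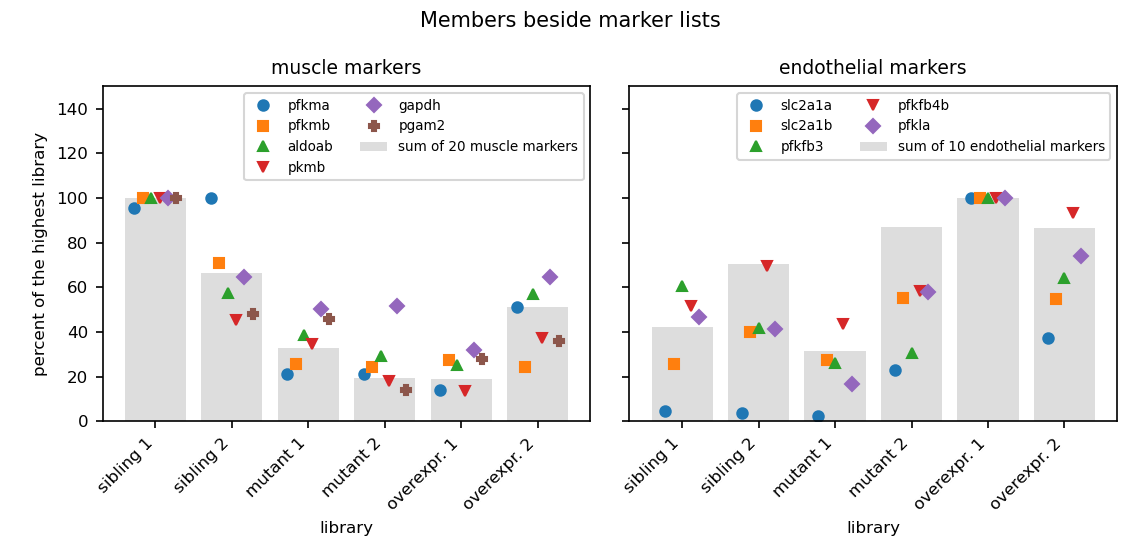
Value of single genes (points) and summed value of a marker list (grey bars) in each of the 6 libraries, each as a percent of its own highest library. On the left, 6 glycolysis genes are drawn with 20 muscle markers, whose sum is highest in sibling replicate 1 (57209). On the right, 5 genes are drawn with 10 endothelial markers, where mutant replicate 2 has a high bar (32249) and a low pfkfb3 point (192).

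Between overexpression and mutants, 4 genes were higher at an unadjusted p under 0.05 (10.8%, pfkfb3, pfkfb4b, slc2a1a and pfkla), beside 8.68% of all genes, and 4 were lower (10.8%, hk2, pgam1a, hk1 and pkma), beside 8.9% of all genes. Groups did not overlap for 5 higher genes (13.5%, those 4 and eno2), beside 24.1% of all genes, and for 14 lower genes (37.8%), beside 24.6% of all genes. The median log2 fold change was -0.18, beside 0.02 over all genes, with 15 genes above 0 and 22 below. It was -0.47 without mutant replicate 2, -0.43 without overexpression replicate 2 and -0.04 without overexpression replicate 1. Without mutant replicate 1 or 2 that group held a single library. Its spread was then not measured, so single genes cannot be called from such a fit.

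The 2 overexpression libraries were not alike in these genes. Relative to the mean of each gene, the median of the 37 genes was -0.47 in overexpression replicate 1 and -0.10 in replicate 2, beside 0.03 and 0.04 over all genes. It was 0.28 and 0.07 in siblings, and 0.04 and -0.03 in mutants. For the 26 genes whose mean reached 50, the median SD between the libraries of a group was 0.33 on the log2 scale in overexpression, 0.33 in mutants and 0.30 in siblings. Over 11850 genes at such values it was 0.17, 0.31 and 0.20. Overexpression replicate 1 is also the library with the lowest myeloid marker sum, 1005 against 8892 in replicate 2. hk2 (129 and 170) and pgam1a (88 and 103) were low in both overexpression libraries. The myeloid markers lcp1 (4417 and 3923 in siblings, 598 and 2196 in overexpression) and coro1a (1525 and 1474, 176 and 729) were also below the siblings in both, while mpx (403 and 963, 60 and 2395) and lyz (1496 and 1951, 41 and 2948) lay on either side of them. cxcr3.2 (48 and 50, 13 and 42) was below the siblings in both as well, while mfap4 (12 and 4, 54 and 149) and mpeg1.1 (2 and 15, 21 and 37) were above them in both. Of the 10 myeloid markers, 4 had a log2 fold change above 0 against siblings and 6 below. The part of myeloid RNA in the values of hk2 and pgam1a was not tested.

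Other genes around glucose use were read from the same fit, and 0 of them passed the adjusted threshold. In overexpression against siblings, the 36 tested genes of the KEGG glycolysis and gluconeogenesis pathway outside the 37 had a median log2 fold change of -0.04, with 17 above 0 and 19 below. Of these 36 genes, 3 were higher and 1 lower at an unadjusted p under 0.05, where 6.23% and 8.77% of all genes were. Of 9 further glycolysis isozymes tested, hkdc1, a hexokinase relative, stood at 58 and 112 in siblings, at 33 and 134 in mutants and at 317 and 187 in overexpression, above all other libraries. slc2a3b, a transporter of the Glut3 type, stood at 297 and 358, 507 and 258, and 116 and 216, below all others. These were the only 2 of the 9 that reached an unadjusted p under 0.05 with overexpression set against siblings, 1 in each direction, beside 6.23% of all genes higher and 8.77% lower.

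Pyruvate and lactate handling was covered by 16 tested genes, of which 2 were higher and 2 lower at an unadjusted p under 0.05 in overexpression than in siblings (beside 6.23% and 8.77% of all genes). The lactate carrier gene slc16a1a stood at 89 and 90 in siblings, at 71 and 232 in mutants and at 445 and 161 in overexpression, which put mutant replicate 2 within the overexpression range. bsg, whose product is the chaperone of that carrier, stood at 1123 and 1356, 1016 and 2176, and 3113 and 2283, above all other libraries in overexpression. pdk2b, a kinase that switches off pyruvate dehydrogenase, stood at 297 and 88 in siblings, at 454 and 67 in mutants and at 18 and 15 in overexpression, and dlat, a subunit of that complex, at 634 and 550, 619 and 500, and 379 and 437. Both were lowest in the overexpression libraries.

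The pentose phosphate pathway, which branches off at glucose phosphate, had 4 of 8 tested genes lower and 0 higher at an unadjusted p under 0.05 in overexpression than in siblings, beside 8.77% and 6.23% of all genes. pgd stood at 541 and 543 in siblings, at 621 and 738 in mutants and at 273 and 421 in overexpression. tktb stood at 1181 and 1070, 1367 and 1206, and 507 and 866, and taldo1 at 488 and 410, 536 and 591, and 213 and 331. For these 3 genes the overexpression libraries were the lowest and the mutants the highest, without overlap between groups. rpia stood at 284 and 237, 201 and 145, and 97 and 120, lower in mutants than in siblings and lowest in overexpression. The log2 fold changes against siblings ranged from -1.26 for rpia to -0.68 for pgd, with adjusted p-values of 0.192 to 0.303 from limma.

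Gluconeogenesis genes, which run the pathway backwards, were 8 of 10 above the minimum, and at an unadjusted p under 0.05 there were 0 of them in overexpression or in mutants, each set against siblings. Of all genes, 6.23% were higher and 8.77% lower in overexpression, and 1.23% higher and 2.17% lower in mutants. Among 14 regulators of the pathway, hif1ab, which encodes a hypoxia-inducible factor, stood at 1352 and 1724 in siblings, at 1474 and 1830 in mutants and at 1583 and 1505 in overexpression, with overlap throughout. foxo1a, whose mammalian counterpart slows endothelial metabolism, stood at 331 and 406, 301 and 544, and 893 and 627, and hif1al, a relative of the hypoxia factor genes, at 1536 and 1687, 1762 and 2075, and 3034 and 2273. Both were highest in the overexpression libraries. hif1al2 stood at 53 and 51, 78 and 32, and 7 and 14, and hif1aa at 61 and 31, 46 and 27, and 22 and 13, both lowest there. These were the 2 higher and 2 lower of 14 at an unadjusted p under 0.05, beside 6.23% and 8.77% of all genes, with adjusted p-values of 0.212 to 0.333 from limma.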

How the data were processed

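The authors checked reads with FastQC, trimmed them with Reaper, aligned them with STAR 2.4.0a to GRCz10 and counted reads on exons with featureCounts 1.4.5-p1, without reads on several genes or places. The strand setting of the counting is not given in the sources used here, so reads of overlapping genes (7 of the 37) may not be told apart. Per gene, the authors deposited a normalized signal, which is the read number over a DESeq2 (1.62) size factor rounded to whole numbers. They are not raw counts, and count models were not used. All 37 names were matched by symbol, and hhex by identifier through a table of gene names.

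For the 20900 genes whose mean reached 5, log2(value + 1) was fitted with limma 3.58.1 (R 4.3.3), 6 libraries in 3 groups in 1 fit, with mean trend and robust estimation (7.96 total degrees of freedom) and Benjamini-Hochberg adjustment over all genes. Fold changes with SE were given, in each comparison, for pfkfb3 and the 6 of the 37 genes with the smallest unadjusted p, and other genes by their values. Genes of the other lists were described after their values were seen. The fit was tested on simulated data. Figures and sums used Python 3.11.15 and pandas 2.3.3. The alternatives were no filter, a minimum mean of 50, a pseudocount of 0.1 or of 5, a fit of the 4 libraries compared alone, a replicate block, quantile scaling, scaling to endothelial markers and each library left out. The 37 genes and the lists were chosen with earlier results of these data known. Standard errors cover counting error and the spread between the 2 libraries of each group, pooled over the 3 groups. In limma this spread is also drawn toward a trend over all genes tested. A gene therefore has the same standard error in all 3 comparisons of the main fit.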

Additional observations from a re-analysis of the deposited data

How the results depend on the processing

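With 0 genes passing in each comparison, the counts moved with several choices. Between overexpression and siblings 4 genes passed without the filter, 4 with quantile scaling, 19 with endothelial marker scaling and 841 (392 higher, 449 lower) with only the 4 libraries of these groups, where 2 glycolysis genes (slc2a1a and pgam1a) passed. With each library left out, 0 to 838 genes and 0 to 2 glycolysis genes passed, the highest counts coming without mutant replicate 2 and, at 793 genes, without mutant replicate 1. Between overexpression and mutants 10 genes passed without the filter and 48 with endothelial marker scaling, and with each library left out 0 to 2512 genes and 0 to 6 glycolysis genes. Between mutants and siblings 0 to 13 genes passed with each library left out, the 13 without mutant replicate 1. The cause was not tested. A fit without 1 library of a compared group holds a single library there, so its counts do not include the spread within that group. Between overexpression and siblings, the fits without a mutant library kept both libraries of each compared group. Their spread came from those groups only. Over 11850 genes the median SD between libraries was 0.31 in mutants, 0.20 in siblings and 0.17 in overexpression. The median of the 37 genes ran from -0.709 to -0.312 between overexpression and siblings and from -0.466 to -0.0437 between overexpression and mutants with each library left out. No gene given with a fold change and SE turned its sign against the median of all genes under any alternative. These genes all have groups that do not overlap, so leaving out a library could not turn their sign. Over all 37 genes, leaving out a library gave up to 11 genes the opposite sign between mutants and siblings. It did so for up to 4 between overexpression and siblings and up to 5 between overexpression and mutants. The replicate numbers are not stated to pair the libraries, whose deviations correlated at -0.107, 0.487 and -0.204 over 11850 genes, and with a replicate block 0 genes passed in each comparison (3315, 734 and 3870 at an unadjusted p under 0.05). With 2 libraries a group, values under 20 carry large counting error, and 7 of the 37 genes have a mean below that.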
